A study of Mus musculus with 16 samples.

Results

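Reads of 7 mature microRNA arms from the mouse miR-17-92 and miR-106b-25 clusters were counted in 8 small RNA libraries of sperm. The members were miR-17-5p, miR-20a-5p, miR-19b-3p and miR-92a-3p of miR-17-92, and miR-93-5p, miR-106b-5p and miR-25-3p of miR-106b-25. They were chosen by name, and a read was assigned to a member when it was 20 to 26 nt long and began with the first 20 bases of the mature arm. The members are 7 of the 1621 arms in the RefSeq table used here, of which 545 had at least 1 read. A filter on low counts kept 187 arms for testing, among them 6 of the 7 members. miR-106b-5p was not kept.

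Each cluster is transcribed as one long primary RNA that is cut into several hairpins, and each hairpin into a pair of arms. The clusters are paralogues, and their products are grouped by the seed, the stretch near the 5′ end that pairs with target messages. They are best known as promoters of cell proliferation and survival, and in the mouse testis both clusters have been tied to the differentiation of spermatogonia. miR-17-5p, miR-20a-5p, miR-93-5p and miR-106b-5p are known to repress the cell cycle inhibitor Cdkn1a, and miR-92a-3p and miR-25-3p the pro-apoptotic gene Bcl2l11.

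The sequences below, from RefSeq (GRCm38.p6), are shown because the seed and the 3′ end are what the counts of families and of isoforms rest on. Capitals mark the seed, bases 2 to 8 from the 5′ end.
miR-17-5p: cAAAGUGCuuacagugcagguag
miR-20a-5p: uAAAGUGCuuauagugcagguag
miR-93-5p: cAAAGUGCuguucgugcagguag
miR-106b-5p: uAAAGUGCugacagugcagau
miR-19b-3p: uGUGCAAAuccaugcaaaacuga
miR-92a-3p: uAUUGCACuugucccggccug
miR-25-3p: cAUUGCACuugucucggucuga

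The first 4 share one seed, miR-19b-3p has its own, and miR-92a-3p shares the last with miR-25-3p. Over the first 20 bases miR-17-5p and miR-20a-5p differ at 2 positions, and miR-92a-3p and miR-25-3p at 3. miR-106a-5p of the X-linked paralogous cluster differs from miR-17-5p at 1 position, and likewise miR-19a-3p from miR-19b-3p and miR-92b-3p from miR-92a-3p, so the exact match keeps these pairs apart.

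In GRCm38.p6 the miR-17-92 arms lie on the plus strand of chromosome 14. miR-17-5p is at chr14:115043684-115043706 and miR-20a-5p at chr14:115044183-115044205. miR-19b-3p is at chr14:115044358-115044380 and a second time at chrX:52741991-52742013 on the minus strand. miR-92a-3p is at chr14:115044476-115044496 and again at chrX:52741854-52741874 on the minus strand. The first 20 bases used for counting are the same at both places, so the counts of these 2 arms are not divided between chromosomes 14 and X. The miR-106b-25 arms lie on the minus strand of chromosome 5, miR-106b-5p at chr5:138165787-138165807, miR-93-5p at chr5:138165574-138165596 and miR-25-3p at chr5:138165332-138165353. All 3 of these hairpins lie inside the protein-coding gene Mcm7.

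The study compared Dnmt2-/- and Dnmt2+/+ male mice on a high-fat diet (HFD, D12492) or a normal diet (ND, Diet 1415), Dnmt2 being a methyltransferase that acts on transfer RNA. The 4 groups were Dnmt2-/- HFD, Dnmt2-/- ND, Dnmt2+/+ HFD and Dnmt2+/+ ND, with 2 libraries each, called 1 and 2 below by replicate number. All groups were of C57BL/6NCrl background. The constitutive knockout (B6;129-Dnmt2tm1Bes/J) had been crossed to that strain for more than 5 generations. Males were bought at 6 weeks of age, and sperm of the adults came from the cauda epididymis and were pelleted from saline. The labels do not say whether the 2 libraries of a group came from different animals or pools, so the p-values given here rest on how libraries of a group differ, and that spread may be technical. Small RNA reads carry no readout of Dnmt2 messenger RNA used here, so the genotype labels were not checked against the targeted gene.

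Libraries held 10165031 to 19030258 reads, of which 1.08% to 7.01% fell on a microRNA arm. Levels are given as reads per 1000000 reads of the library (CPM), and 3 reads correspond to 0.158 to 0.295 CPM, the limit that a count of 0 allows. The libraries fell into 3 technical sets by substitution errors in abundant sequences. Set A (Dnmt2-/- ND 1 and 2 and Dnmt2+/+ ND 1) had a G-to-T rate at read base 29 of 407 to 520.1 per 10000 bases, against 2.91 to 3.95 in the other 5. Set B (Dnmt2-/- HFD 1 and Dnmt2+/+ HFD 1 and 2) had a C-to-G rate at read base 26 of 9.57 to 9.83, against 0 to 0.835 in the others, and set C (Dnmt2-/- HFD 2 and Dnmt2+/+ ND 2) had neither. Set A holds ND libraries alone and set B holds HFD libraries alone, so between those sets diet and set cannot be told apart. The 5 male germ line microRNAs found in the reference table, of a list of 6, summed to 309 to 1501 CPM, while 5 epididymal epithelium microRNAs summed to 190.5 to 3987 CPM. In bulk sperm samples, fewer cells of a type and less RNA per cell cannot be told apart.

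Of the 7 members, miR-25-3p and miR-92a-3p were by far the most abundant in sperm. miR-25-3p averaged 109.7 CPM over the 8 libraries (rank 26 of 545 arms) and miR-92a-3p averaged 71.9 CPM (rank 30). miR-93-5p (10.7 CPM, rank 81) and miR-20a-5p (6.86 CPM, rank 90) followed, then miR-17-5p (2.14 CPM, rank 128), miR-19b-3p (1.67 CPM, rank 133) and miR-106b-5p (0.171 CPM, rank 239). The 7 members together took 0.352% to 1.76% of all microRNA reads. The order of the neighbours miR-25-3p and miR-92a-3p held in every library, but the members of each neighbouring pair overlapped in their range over libraries.

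miR-25-3p had 99.8 and 138 CPM in the Dnmt2-/- HFD libraries 1 and 2, 57.0 and 95.0 CPM in Dnmt2-/- ND, 121 and 86.5 CPM in Dnmt2+/+ HFD, and 118 and 162 CPM in Dnmt2+/+ ND. It was the steadiest member, with a highest level 2.84 times its lowest. Among the 81 arms with a mean of at least 10 CPM and a read in every library the median of that ratio was 9.54, and 6 arms had a smaller one than miR-25-3p.

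miR-92a-3p, which has the same seed, had 80.3 and 87.0 CPM in Dnmt2-/- HFD, 16.7 and 18.8 CPM in Dnmt2-/- ND, 103 and 73.9 CPM in Dnmt2+/+ HFD, and 36.2 and 159 CPM in Dnmt2+/+ ND. The 3 set A libraries were the lowest and Dnmt2+/+ ND 2 the highest. Its highest level was 9.54 times its lowest.

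In the miR-17 seed family, miR-93-5p had 12.4 and 4.13 CPM in Dnmt2-/- HFD, 2.96 and 2.05 CPM in Dnmt2-/- ND, 20.4 and 17.5 CPM in Dnmt2+/+ HFD, and 1.42 and 24.5 CPM in Dnmt2+/+ ND. miR-20a-5p had 9.22 and 2.71 CPM in Dnmt2-/- HFD, 0.607 and 0.836 CPM in Dnmt2-/- ND, 12.8 and 13.5 CPM in Dnmt2+/+ HFD, and 0.315 and 14.9 CPM in Dnmt2+/+ ND. Both were lowest in the 3 set A libraries, next lowest in Dnmt2-/- HFD 2 and highest in Dnmt2+/+ ND 2. The highest level was 17.3 times the lowest for miR-93-5p and 47.2 times for miR-20a-5p, whose lowest value rests on 6 reads.

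The other members were near the limit of detection in set A. miR-17-5p had 4.08 and 1.05 CPM in Dnmt2-/- HFD, 0.303 and 0 CPM in Dnmt2-/- ND, 3.50 and 3.15 CPM in Dnmt2+/+ HFD, and 0.420 and 4.62 CPM in Dnmt2+/+ ND. miR-19b-3p had 2.43 and 0.676 CPM in Dnmt2-/- HFD, 0.455 and 0 CPM in Dnmt2-/- ND, 2.53 and 3.74 CPM in Dnmt2+/+ HFD, and 0.263 and 3.30 CPM in Dnmt2+/+ ND. These 2 arms were thus spread over libraries like miR-20a-5p, with 0 to 8 reads in each set A library. miR-106b-5p had 17 reads in all, of which 9 were in Dnmt2+/+ ND 2, 4 and 1 in Dnmt2+/+ HFD and 3 in Dnmt2-/- HFD 2, and its level was not resolved at this depth.

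**Figure D1:**
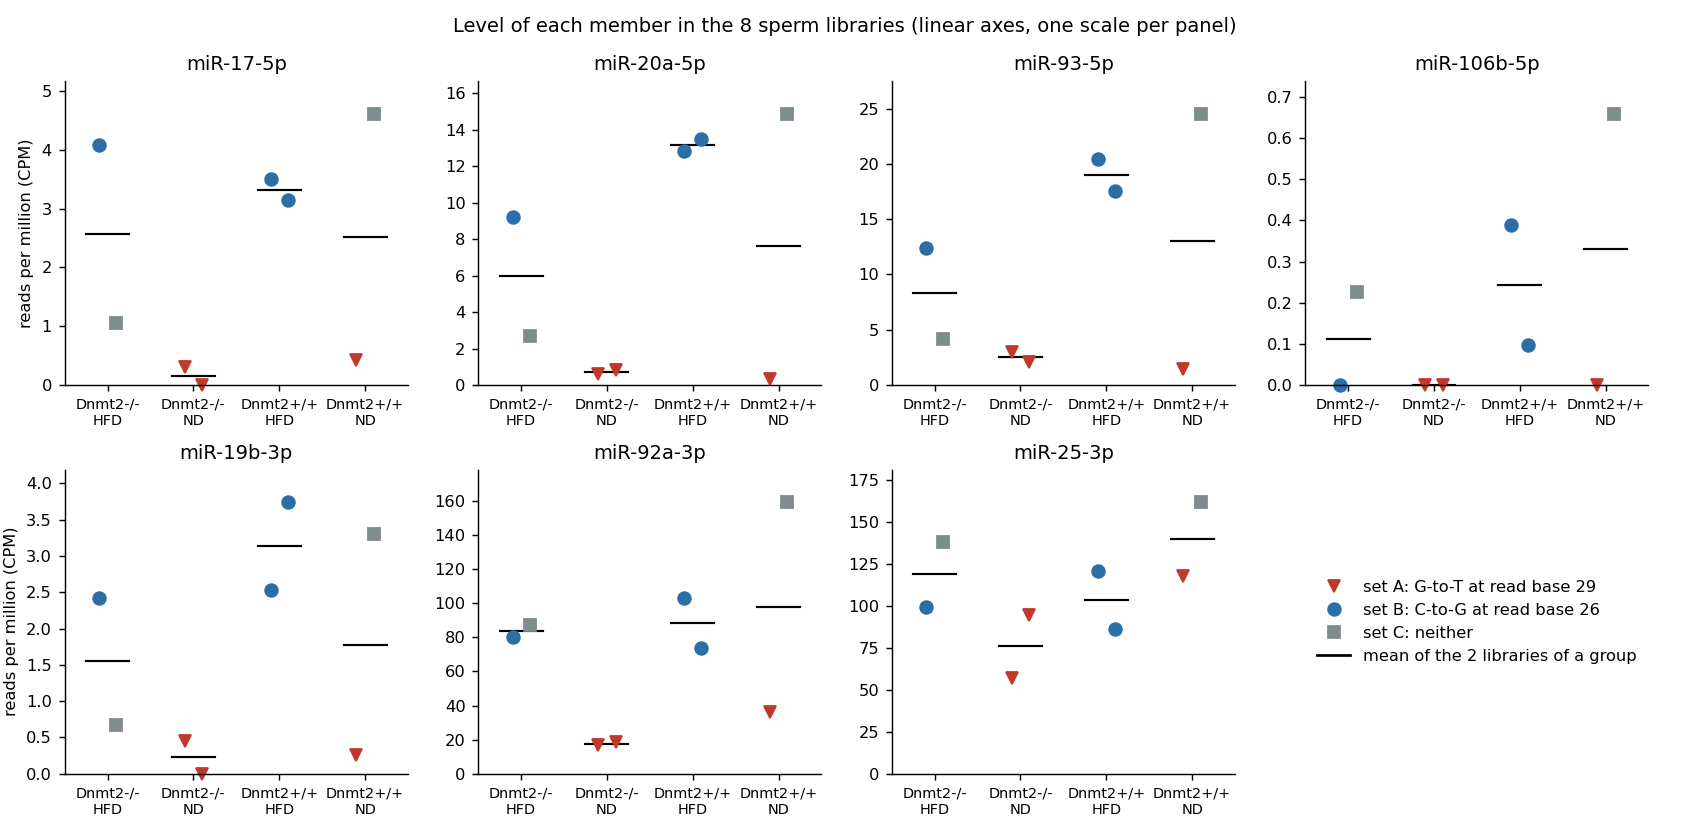
Level of each member (vertical axes, CPM, linear and scaled per panel) in the 4 groups, 1 point per library, with the technical set given by shape and colour and the mean of each pair as a line. Except for miR-25-3p, set A libraries lie at the bottom of each panel, alone or, for miR-106b-5p, with a set B library at 0.

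High-fat diet was set against normal diet to ask whether sperm levels of the members differ with the father's diet. Scaled to total reads, all 6 tested members, and 173 of all 187 tested arms, had fitted levels above ND on HFD when both genotypes were averaged, but no member passed the threshold, and miR-92a-3p, miR-93-5p and miR-25-3p had the opposite sign when scaled to the microRNAs themselves. Without the library Dnmt2+/+ ND 2, 5 of the 6 passed it, as did 147 of the 207 arms that the filter kept in that fit (71%). With the technical set as a term in the fit 5 of the 6 had the opposite sign and none passed. Each offset between sets in that fit rests on a single pair of libraries. Among the 4 ND libraries, Dnmt2+/+ ND 2 carried more of every member than the other 3.

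By edgeR's quasi-likelihood test with Benjamini-Hochberg adjustment, 14 of 187 arms (7.49%) were called for diet, all higher on HFD, and 0 of the 6 tested members were among them. None of the 6 reached an unadjusted p under 0.05, against 57 of all 187 arms. miR-17-5p averaged 2.94 ± 1.32 CPM on HFD and 1.33 ± 2.19 CPM on ND (SD, n = 4 each), a log2 fold change of 2.20 ± 1.07 (standard error; edgeR adjusted p = 0.191). miR-92a-3p averaged 86.0 ± 12.4 CPM on HFD and 57.7 ± 68.3 CPM on ND, a log2 fold change of 1.05 ± 0.52 (edgeR adjusted p = 0.198). The large SD on ND came from Dnmt2+/+ ND 2. miR-25-3p averaged 111 ± 22.9 CPM on HFD and 108 ± 43.9 CPM on ND, a log2 fold change of 0.11 ± 0.40 (edgeR adjusted p = 0.823). miR-20a-5p, miR-19b-3p and miR-93-5p had log2 fold changes of 1.13 to 1.91, with adjusted p-values of 0.209 to 0.331 in edgeR. The median log2 fold change was 1.45 over the 6 members and 1.31 over all 187 arms.

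No member had all 4 HFD libraries above all 4 ND libraries in CPM, as 13.9% of the arms did. Relative to the median arm, miR-25-3p was lower on HFD by all scalings run. Its log2 fold change minus that of the median arm was -1.20 scaled to total reads, -1.47 with TMM factors, -0.97 scaled to microRNA reads and -1.47 with DESeq2. DESeq2, whose size factors put the median arm at 0.00, called 26 of all 187 arms and 1 of the 6 tested members. That member was miR-25-3p, with a log2 fold change of -1.47 ± 0.52 (DESeq2 adjusted p = 0.0389). edgeR did not call it under any of the 3 scalings run. miR-17-5p, miR-20a-5p and miR-19b-3p stayed above the median arm under these 4 scalings, by 0.41 to 0.92, and miR-92a-3p and miR-93-5p lay below it, by values of -0.29 to -0.11. These positions did not hold with the technical set as a term. There miR-25-3p lay at 0.82 and miR-92a-3p at 0.41 relative to the median arm. miR-17-5p was at -0.87, miR-19b-3p at -1.29, miR-93-5p at -1.97 and miR-20a-5p at -2.09.

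The members called without Dnmt2+/+ ND 2 were miR-20a-5p (log2 fold change 4.18 ± 0.69), miR-17-5p (3.47 ± 0.93), miR-19b-3p (3.11 ± 0.98), miR-93-5p (2.72 ± 0.59) and miR-92a-3p (1.76 ± 0.38), with edgeR adjusted p-values of 0.00448 to 0.0237. Those 5 stand among the 147 arms called, of which 144 were higher on HFD. It compares 4 HFD libraries with 3 ND libraries that are all of set A, and the single Dnmt2+/+ ND library left is assumed to vary like the other groups. Within set C, the only set with both diets, HFD and ND are also of different genotype. There Dnmt2-/- HFD 2 was below Dnmt2+/+ ND 2 in all 7 members, with 1.05 against 4.62 CPM for miR-17-5p, 2.71 against 14.9 CPM for miR-20a-5p, 4.13 against 24.5 CPM for miR-93-5p, 87.0 against 159 CPM for miR-92a-3p and 138 against 162 CPM for miR-25-3p. With set as a term, which leaves 2 residual degrees of freedom, the log2 fold changes for diet were -2.78 for miR-20a-5p, -2.67 for miR-93-5p, -1.99 for miR-19b-3p, -1.56 for miR-17-5p, -0.29 for miR-92a-3p and 0.12 for miR-25-3p, and 0 of 187 arms were called. In that fit the offset between sets A and C rests on the 2 Dnmt2+/+ ND libraries alone. The offset between sets B and C rests on the 2 Dnmt2-/- HFD libraries alone. These signs thus hang on single libraries, and Dnmt2+/+ ND 1 had 6 reads of miR-20a-5p.

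**Figure D2:**
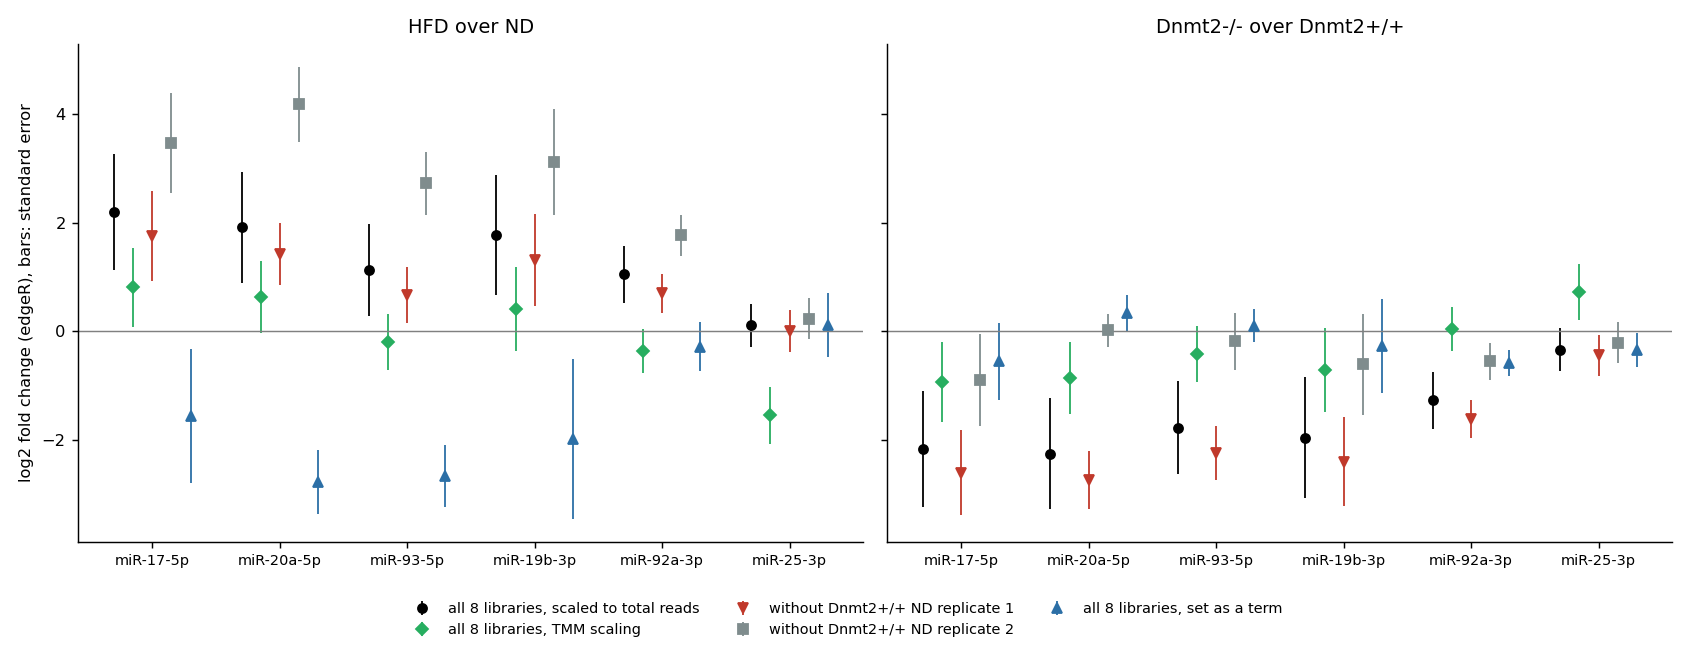
Log2 fold changes (vertical axis) of the 6 tested members from edgeR, with standard errors as bars, for HFD over ND on the left and Dnmt2-/- over Dnmt2+/+ on the right, under 5 settings. For diet, miR-20a-5p lies at 1.91 with all libraries, at 4.18 without Dnmt2+/+ ND 2 and at -2.78 with set as a term, while miR-25-3p stays near 0 except under TMM scaling.

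Within Dnmt2-/- sperm the HFD libraries were above the ND libraries for 6 of the 7 members, without overlap, while the same held for 78.6% of all tested arms. The ND libraries there are both of set A and the HFD libraries are not. edgeR called 1 of 187 arms (0.535%), which was no member, although miR-17-5p (log2 fold change 3.99 ± 1.67, adjusted p = 0.166) and miR-92a-3p (2.24 ± 0.77, adjusted p = 0.147) had an unadjusted p under 0.05. The median was 2.47 over the 6 members and 2.05 over all arms. Leaving out either Dnmt2+/+ ND library, which enters this contrast through the shared estimate of spread, brought miR-17-5p, miR-20a-5p and miR-92a-3p past the threshold, with log2 fold changes of 3.98, 3.02 and 2.24. In each case 68 arms were called, which was 31.3% of 217 arms kept without Dnmt2+/+ ND 1 and 32.9% of 207 kept without Dnmt2+/+ ND 2.

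Within Dnmt2+/+ sperm the HFD and ND pairs overlapped for all 7 members, while 39.6% of the arms had both HFD libraries above both ND libraries. edgeR again called 1 of 187 arms (0.535%) and no member. Log2 fold changes were -0.43 for miR-25-3p, -0.15 for miR-92a-3p and 0.41 to 0.82 for the other 4, with adjusted p-values of 0.868 to 0.971 in edgeR. Without Dnmt2+/+ ND 2, 72 of 207 arms were called (34.8%), among them miR-20a-5p (5.34 ± 1.13) and miR-93-5p (3.73 ± 0.96). Without Dnmt2+/+ ND 1, 0 were called.

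Dnmt2-/- sperm were set against Dnmt2+/+ sperm to ask whether loss of the enzyme goes with other levels of the members. Scaled to total reads, all 6 tested members had lower fitted levels in Dnmt2-/- sperm, as did 180 of all 187 arms, and none passed the threshold. Scaled with TMM factors over the microRNAs, miR-25-3p (0.73) and miR-92a-3p (0.04) had the opposite sign. In edgeR and in DESeq2 0 of 187 arms (0%) were called, and in edgeR 14 had an unadjusted p under 0.05, among them miR-92a-3p. miR-92a-3p averaged 50.7 ± 38.2 CPM in Dnmt2-/- and 93.1 ± 51.9 CPM in Dnmt2+/+ sperm (SD, n = 4 each), a log2 fold change of -1.27 ± 0.52 (edgeR adjusted p = 0.279). miR-20a-5p averaged 3.34 ± 4.03 CPM in Dnmt2-/- and 10.4 ± 6.76 CPM in Dnmt2+/+ sperm, a log2 fold change of -2.26 ± 1.03 (edgeR adjusted p = 0.279). The other members ranged from -2.17 for miR-17-5p to -0.34 for miR-25-3p. The median was -1.87 over the 6 members and -1.06 over all 187 arms, and relative to the median arm miR-25-3p lay at 0.72 and the miR-17 family and miR-19b-3p at -1.19 to -0.72.

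On HFD, miR-20a-5p, miR-19b-3p and miR-93-5p were lower in both Dnmt2-/- libraries than in both Dnmt2+/+ libraries, as were 38% of the arms. On ND the same held for miR-17-5p, miR-92a-3p and miR-25-3p, and for 36.4% of the arms. Within set B, the Dnmt2-/- HFD library had 9.22 CPM of miR-20a-5p against 12.8 and 13.5 CPM in Dnmt2+/+ HFD, and 12.4 CPM of miR-93-5p against 20.4 and 17.5 CPM. Within set A, the Dnmt2-/- ND libraries had 16.7 and 18.8 CPM of miR-92a-3p against 36.2 CPM in Dnmt2+/+ ND 1, but 2.96 and 2.05 CPM of miR-93-5p against 1.42 CPM, and 0.607 and 0.836 CPM of miR-20a-5p against 0.315 CPM. So the direction of miR-92a-3p was the same in sets A and C, but the libraries of set C differ in diet as well as genotype. In set B the Dnmt2-/- library lay between the Dnmt2+/+ libraries. The directions of miR-93-5p and miR-20a-5p differed between sets A and B. Without Dnmt2+/+ ND 1, 70 of 217 arms were called for genotype (32.3%), among them miR-20a-5p (-2.75 ± 0.54), miR-17-5p (-2.61 ± 0.78), miR-93-5p (-2.24 ± 0.50) and miR-92a-3p (-1.62 ± 0.35), with edgeR adjusted p-values of 0.0176 to 0.0389. Without Dnmt2+/+ ND 2, 0 were called and miR-20a-5p was at 0.01.

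Whether the diet effect differed between genotypes was tested as an interaction. In edgeR and DESeq2 0 of 187 arms (0%) passed, and 2 had an unadjusted p under 0.05 in edgeR, neither of them a member. The interaction terms of the members ran from 1.08 for miR-25-3p to 3.58 for miR-17-5p on the log2 scale, against a median of 1.17 over all arms (edgeR adjusted p = 0.789 for each member), and miR-93-5p had the opposite sign with TMM factors and in DESeq2.

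Several markers of other cells, and some of the germ line, were lowest in set A, as most members were. The 5 epididymal epithelium microRNAs, all detected, summed to 3035 and 608 CPM in Dnmt2-/- HFD, 412 and 190.5 CPM in Dnmt2-/- ND, 3987 and 3481 CPM in Dnmt2+/+ HFD, and 304 and 1914 CPM in Dnmt2+/+ ND. As for miR-20a-5p and miR-93-5p, set A and Dnmt2-/- HFD 2 were the lowest. The 4 leukocyte microRNAs found in the table, of a list of 5, summed to 57.3 and 34.1 CPM in Dnmt2-/- HFD, 9.18 and 3.88 CPM in Dnmt2-/- ND, 85.5 and 50.6 CPM in Dnmt2+/+ HFD, and 2.21 and 31.8 CPM in Dnmt2+/+ ND. miR-146a-5p alone made up 90.2% to 98.35% of that sum. Of the rest, miR-223-3p overlapped between set A (0.152 to 0.304 CPM) and the others (0.197 to 1.47 CPM). The endothelial miR-126a-3p ran from 1.37 to 2.81 CPM in set A and from 7.82 to 19.2 CPM in the others. Of the erythrocyte list miR-144-3p was at 0 in all 8 libraries and miR-451a had 0.303 to 0.684 CPM in set A and 0.874 to 2.20 CPM in the others. The muscle microRNA miR-206-3p had 64.7 to 75.3 CPM in the set B libraries, against 0.0759 to 0.676 CPM in the other 5. It was at 0.147 CPM in Dnmt2+/+ ND 2, where most members were highest. The germ line list summed to 309 and 779 CPM in Dnmt2-/- HFD, 331 and 1080.4 CPM in Dnmt2-/- ND, 655 and 420.2 CPM in Dnmt2+/+ HFD, and 1501 and 630.2 CPM in Dnmt2+/+ ND, and was highest in 2 libraries of set A, Dnmt2+/+ ND 1 and Dnmt2-/- ND 2. miR-881-3p made up 86.5% to 96.6% of that sum. Of the rest of the germ line list, miR-741-3p and miR-449a-5p were lowest in set A, like most members. miR-741-3p had 5.63 to 8.51 CPM in set A and 16.01 to 32.0 CPM in the others, and miR-449a-5p 0 to 0.0760 CPM and 0.376 to 4.76 CPM. miR-871-3p did not follow, with 8.50 to 94.0 CPM in set A and 14.4 to 48.4 CPM in the others. miR-34b-5p had 0 to 0.0760 CPM and 0 to 0.295 CPM. The part of these cells in the members' levels was not tested.

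Within each cluster a single arm took most of the reads. miR-92a-3p made up 83.6% and 95.2% of the 4 miR-17-92 members in Dnmt2-/- HFD, 92.4% and 95.7% in Dnmt2-/- ND, 84.5% and 78.4% in Dnmt2+/+ HFD, and 97.3% and 87.5% in Dnmt2+/+ ND. miR-25-3p made up 88.9% and 96.9% of the 3 miR-106b-25 members in Dnmt2-/- HFD, 95.1% and 97.9% in Dnmt2-/- ND, 85.3% and 83.1% in Dnmt2+/+ HFD, and 98.8% and 86.5% in Dnmt2+/+ ND. In both clusters the dominant arm was at 92.4% or more in set A and in Dnmt2-/- HFD 2, and at 88.9% or less in the other 4 libraries. The libraries thus divided in the same way in a cluster on chromosome 14 and a cluster on chromosome 5. Both clusters were read in the same libraries, with technical set and mix of cells in common. The epididymal epithelium sum also divided the libraries in this way, at 608 CPM or less and at 1914 CPM or more. So did the endothelial miR-126a-3p, at 7.82 CPM or less and at 11.7 CPM or more. Of the germ line list, miR-449a-5p (0.376 CPM or less, 2.62 CPM or more) and miR-741-3p (16.01 CPM or less, 16.8 CPM or more) did too. The leukocyte and germ line sums, miR-451a and miR-206-3p did not. The part of any of these cells in the shares was not tested.

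The miR-17 seed family filled most of the remainder. miR-20a-5p was 9.60% and 2.96% of its cluster in Dnmt2-/- HFD, 3.36% and 4.26% in Dnmt2-/- ND, 10.5% and 14.3% in Dnmt2+/+ HFD, and 0.847% and 8.17% in Dnmt2+/+ ND. miR-93-5p was 11.1% and 2.90% of its cluster in Dnmt2-/- HFD, 4.93% and 2.12% in Dnmt2-/- ND, 14.4% and 16.8% in Dnmt2+/+ HFD, and 1.19% and 13.1% in Dnmt2+/+ ND. The 95% Wilson interval for miR-93-5p, which covers counting error only, was 0.817% to 1.72% in Dnmt2+/+ ND 1 and 11.9% to 14.5% in Dnmt2+/+ ND 2, so 2 libraries of 1 group differed by far more than counting error. By diet, the mean share of miR-93-5p was 11.3% ± 6.07 on HFD and 5.34% ± 5.42 on ND (SD, n = 4 each), and by genotype it was 5.25% ± 4.06 in Dnmt2-/- and 11.4% ± 6.97 in Dnmt2+/+ sperm, and the groups overlapped in both splits. miR-17-5p was at most 4.24% and miR-19b-3p at most 3.97% of their cluster, and both had 0 of 258 reads in Dnmt2-/- ND 2 (95% Wilson upper bound 1.47%). miR-106b-5p was at most 0.352%.

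**Figure D3:**
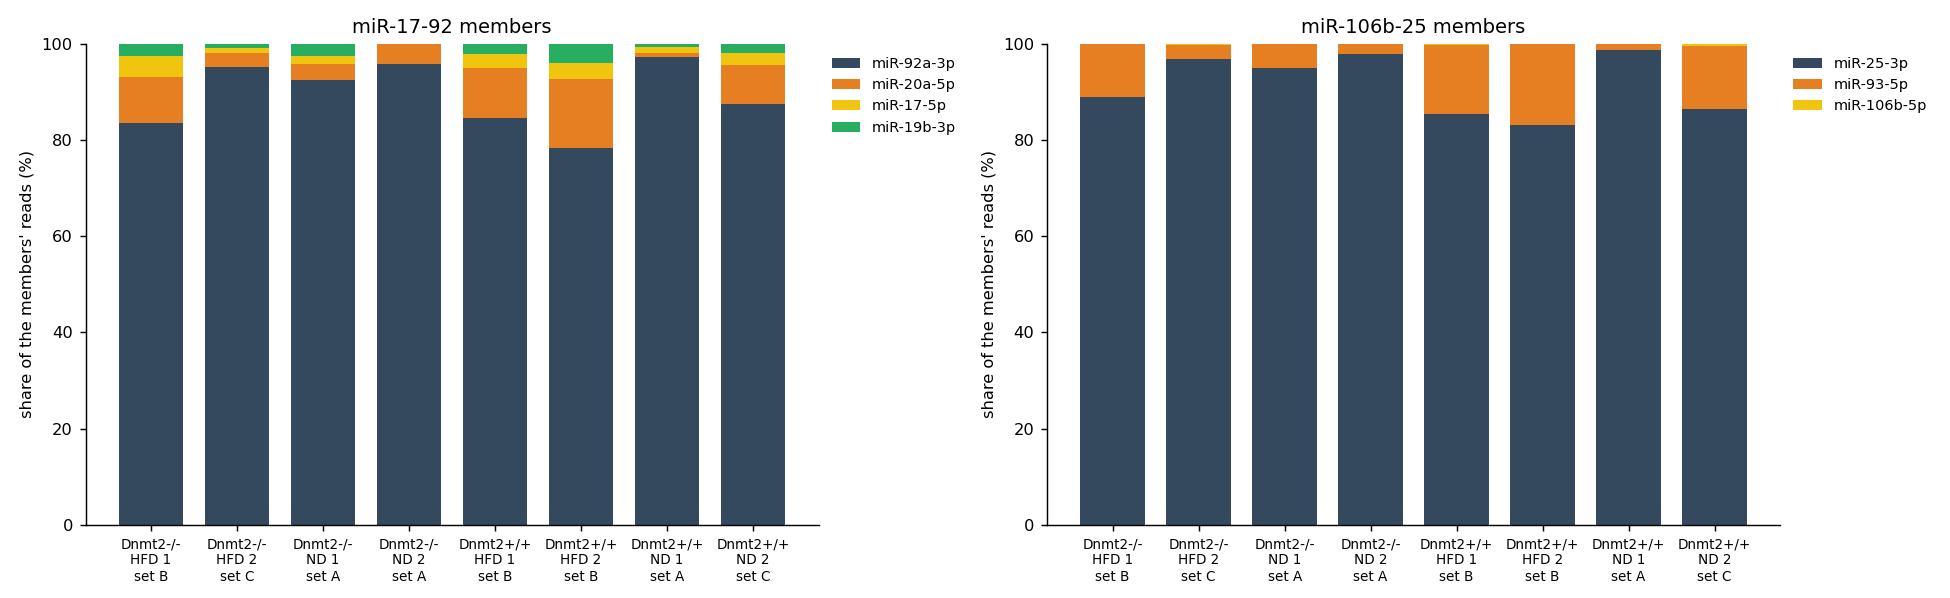
Share of each member (vertical axis, percent of the members' reads) in the miR-17-92 cluster on the left and the miR-106b-25 cluster on the right, 1 bar per library with its group, replicate and technical set. miR-92a-3p and miR-25-3p fill 78.4% to 98.8% of every bar, and the orange part (miR-20a-5p or miR-93-5p) is thin in set A and in Dnmt2-/- HFD 2.

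Grouped by seed, the family of miR-92a-3p and miR-25-3p held 86.5% and 96.2% of the 7 members' reads in Dnmt2-/- HFD, 94.5% and 97.5% in Dnmt2-/- ND, 85.0% and 80.9% in Dnmt2+/+ HFD, and 98.5% and 87.0% in Dnmt2+/+ ND. The family of miR-17-5p held 12.3% and 3.47% in Dnmt2-/- HFD, 4.96% and 2.48% in Dnmt2-/- ND, 14.1% and 17.3% in Dnmt2+/+ HFD, and 1.38% and 12.1% in Dnmt2+/+ ND. Within set B the Dnmt2-/- library had the lowest share of the miR-17 family, and within set A both Dnmt2-/- libraries had more of it than the Dnmt2+/+ library. The mean of set A was below that of the other libraries in all 6 tested members. On log2(CPM + 1), set A minus the other 5 was -2.72 for miR-20a-5p, -2.26 for miR-93-5p, -2.05 for miR-92a-3p, -1.72 for miR-17-5p, -1.44 for miR-19b-3p and -0.46 for miR-25-3p, against a median of -1.22 over 187 arms. The added 1 CPM understates the difference of low arms. In mean CPM, set A was 18.1-fold lower than the others for miR-20a-5p, 13.6-fold for miR-17-5p, 10.6-fold for miR-19b-3p, 7.37-fold for miR-93-5p, 4.21-fold for miR-92a-3p and 1.35-fold for miR-25-3p. Set A holds ND libraries alone, and these values are given as a description with no test.

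Nearly all reads of the members began at the annotated 5′ end, which sets the seed. Between 99.0% and 100% of reads starting within 3 bases of that end started on it, for each member. The 3′ ends varied more, and the most frequent reads are shown because they differ from the annotated arm. They are written as deposited, with T for U, and capitals mark bases past or different from the annotated mature sequence.
miR-92a-3p, first: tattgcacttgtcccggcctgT
miR-92a-3p, second: tattgcacttgtcccggcctgTA
miR-92a-3p, next: tattgcacttgtcccggcctgC
miR-25-3p, first: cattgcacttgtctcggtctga
miR-25-3p, second: cattgcacttgtctcggtctgT
miR-17-5p, first: caaagtgcttacagtgcaggtagA
miR-93-5p, first: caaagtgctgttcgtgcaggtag
miR-93-5p, second: caaagtgctgttcgtgcaggtagA
miR-19b-3p, first: tgtgcaaatccatgcaaaactgT

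Of 7126 miR-92a-3p reads, 58.8% were the annotated arm with 1 more base that is in the hairpin, 12.2% were the second form above and 7.35% the next. For miR-92a-3p and miR-19b-3p a base counted as in the hairpin when it matched the hairpin of chromosome 14 or that of X. The annotated end itself took 2.36% of miR-92a-3p reads. miR-25-3p was different, since 63.8% of its 11453 reads were exactly the annotated arm of 22 nt and 7.33% were the second form above. An A that is not in the hairpin ended 52.8% of 199 miR-17-5p reads as the single most frequent form, against 31.2% with the annotated end. The same addition was on 16.7% of 628 miR-20a-5p reads and 22.0% of 999 miR-93-5p reads, where the annotated form led with 61.1% and 36.4%. For miR-19b-3p, 35.7% of 154 reads were the form printed above. Base calls at the last position were not told apart from bases added in the cell.

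The miR-25-3p reads of annotated length were 66.7% and 77.0% in Dnmt2-/- HFD, 82.2% and 80.6% in Dnmt2-/- ND, 65.7% and 68.5% in Dnmt2+/+ HFD, and 72.4% and 70.9% in Dnmt2+/+ ND. The share was lowest in set B. It averaged 69.5% ± 5.12 on HFD and 76.5% ± 5.69 on ND (exact permutation p = 0.143, adjusted 0.414, two-sided, n = 4 each), and 76.6% ± 6.95 in Dnmt2-/- and 69.4% ± 2.92 in Dnmt2+/+ sperm (exact permutation p = 0.114, adjusted 0.829). The groups overlapped in both splits.

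miR-92a-3p reads were longer on average in each Dnmt2-/- library than in any Dnmt2+/+ library. The mean length was 22.45 nt in both libraries of Dnmt2-/- HFD, 22.45 and 22.50 nt in Dnmt2-/- ND, 22.39 and 22.38 nt in Dnmt2+/+ HFD, and 22.28 and 22.27 nt in Dnmt2+/+ ND. The order also held within sets A, B and C, although the libraries of set C differ in diet as well as genotype. The means were 22.46 ± 0.027 nt in Dnmt2-/- and 22.33 ± 0.065 nt in Dnmt2+/+ sperm, a difference of 0.134 nt (exact permutation p = 0.0286, two-sided, the smallest that 4 against 4 libraries allow). Across the 58 arms with at least 50 reads in every library the adjusted p was 0.977. By exact permutation 0 of 58 arms (0%) passed for either measure in either split, which says nothing of a single arm, since 34 arms would have to reach the smallest p before any could pass. Of the 58 arms 1, miR-92a-3p, had an unadjusted p under 0.05 for mean length by genotype, a count that chance alone can give. Of the 86 arms with at least 20 reads in every library, 2 did. miR-25-3p did not share the order, with 22.18 ± 0.037 nt in Dnmt2-/- and 22.24 ± 0.048 nt in Dnmt2+/+ sperm and overlap.

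Among the forms of miR-92a-3p, reads with over 1 base not in the hairpin were 10.5% and 7.86% in Dnmt2-/- HFD, 10.0% and 8.91% in Dnmt2-/- ND, 7.37% and 8.26% in Dnmt2+/+ HFD, and 5.08% and 4.42% in Dnmt2+/+ ND. These ranges overlapped at Dnmt2-/- HFD 2 and Dnmt2+/+ HFD 2. Reads ending in a C not in the hairpin were 12.2% and 4.32% in Dnmt2-/- HFD, 3.18% and 2.02% in Dnmt2-/- ND, 9.54% and 14.0% in Dnmt2+/+ HFD, and 2.18% and 8.65% in Dnmt2+/+ ND. Those were highest in set B and lowest in set A. Reads ending in an A not in the hairpin ran from 10.0% to 20.2% in Dnmt2-/- and from 11.0% to 13.8% in Dnmt2+/+ sperm.

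**Figure D4:**
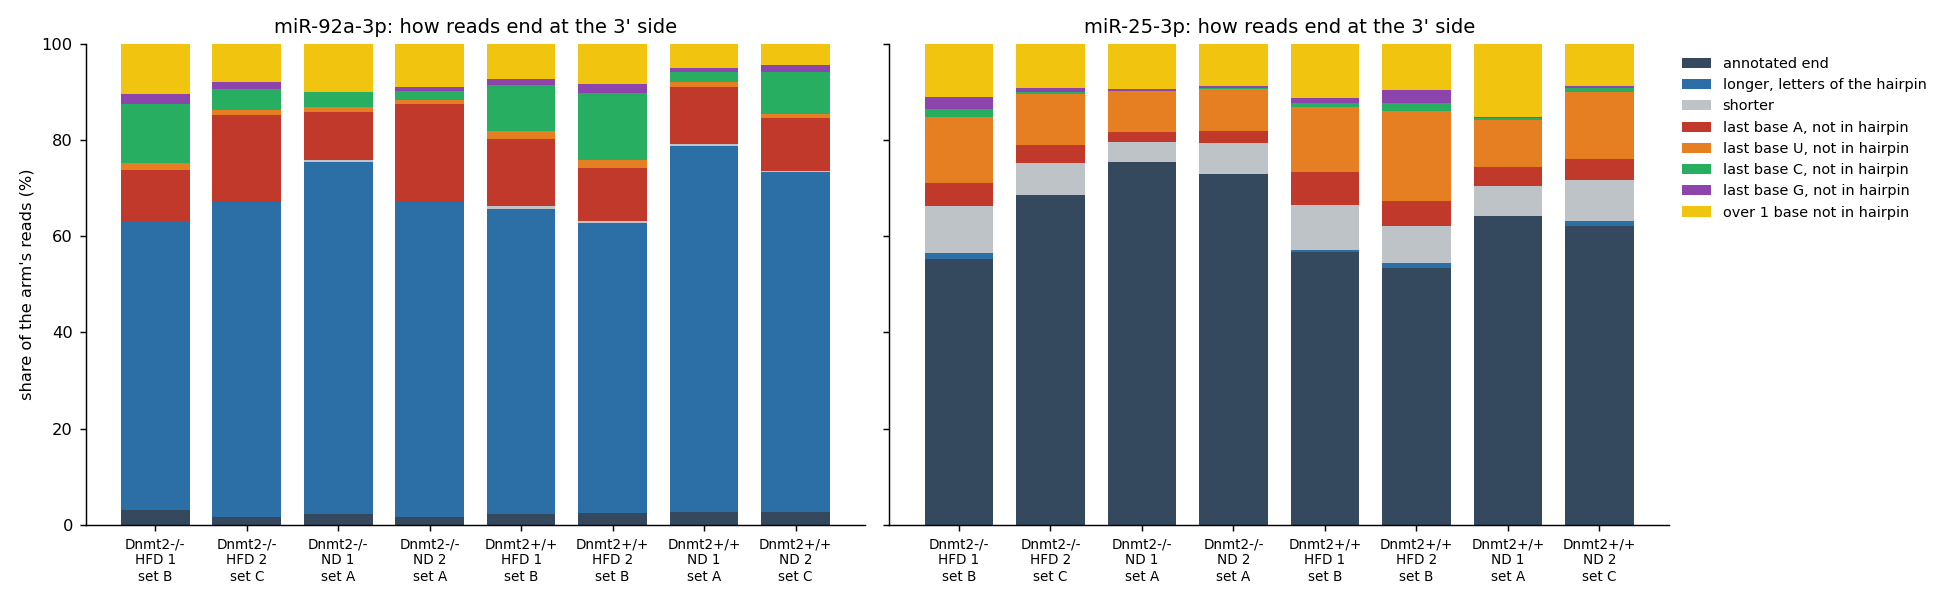
Share of reads (vertical axis, percent) by the form of the 3′ end for miR-92a-3p on the left and miR-25-3p on the right, 1 bar per library with its group, replicate and technical set. miR-92a-3p is mostly longer than annotated with hairpin letters (60.1% to 76.2%), and miR-25-3p mostly has the annotated end (53.4% to 75.4%).

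**Figure D5:**
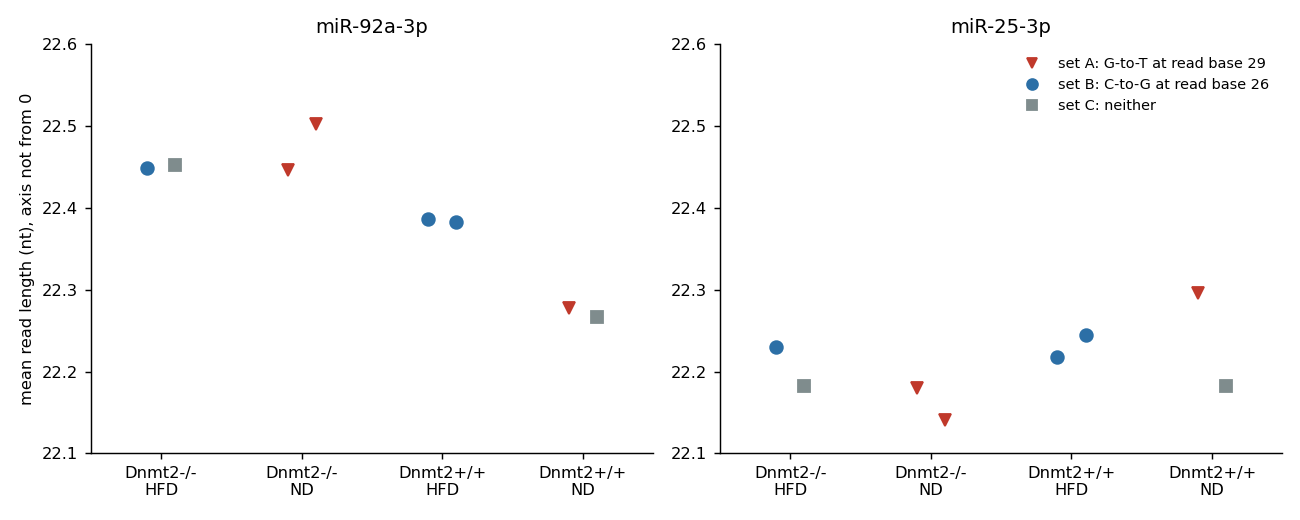
Mean read length (vertical axis, nt, not starting at 0) of miR-92a-3p on the left and miR-25-3p on the right, 1 point per library, with the technical set given by shape and colour. All 4 Dnmt2-/- points for miR-92a-3p lie above the 4 Dnmt2+/+ points, and those for miR-25-3p overlap.

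The other arms of the same hairpins were nearly absent, with 1 exception. The member took 99.3% to 100% of the reads of its hairpin for miR-17-5p, miR-20a-5p, miR-93-5p and miR-25-3p, and likewise for miR-19b-3p and miR-92a-3p counted against the other arm of their chromosome 14 hairpins. For the miR-106b hairpin it was the reverse. miR-106b-3p had 548 reads against 17 of miR-106b-5p, which was 3.01% of the pair (95% Wilson interval 1.89% to 4.77%). miR-106b-3p had 5.05 and 6.91 CPM in Dnmt2-/- HFD, 1.90 and 2.74 CPM in Dnmt2-/- ND, 7.96 and 5.41 CPM in Dnmt2+/+ HFD, and 3.84 and 9.74 CPM in Dnmt2+/+ ND. It was lowest in set A and highest in Dnmt2+/+ ND 2, as most members were.

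Of the remaining arms of the clusters, miR-19a-3p, a close relative of miR-19b-3p, had 83 reads, of which 42 were in Dnmt2+/+ ND 2, 19 and 15 in Dnmt2+/+ HFD, 1 and 3 in Dnmt2-/- HFD and 3 in Dnmt2-/- ND 1. miR-18a-5p and miR-18a-3p had 10 and 4 reads. In the X-linked cluster miR-363-3p had 8 reads, miR-20b-5p 1 and the other 7 arms found none, while miR-92b-3p, which shares the seed of miR-92a-3p, had 60 reads.

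Over the 8 libraries the sum of the miR-17-92 members was most like miR-9-5p (Pearson r of log2(CPM + 1) 0.975), miR-23a-3p (0.973) and miR-741-3p (0.971), among 78 arms outside the clusters with a mean of at least 10 CPM. The sum of the miR-106b-25 members was most like miR-743a-5p (0.901), miR-878-5p (0.873) and miR-200a-5p (0.853). These r are descriptions over 8 libraries, and all arms of a library have its total of reads and its technical set in common. miR-741-3p is on the germ line list and miR-200a-5p is the partner strand of the epithelial miR-200a-3p.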

How the data were processed

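Small RNA libraries of total RNA (Trizol, TruSeq small RNA kit) were made from sperm, per the labels. The deposited tables give, for each distinct read of 18 to 44 nt, its sequence and its count, that is raw counts that the authors had not normalized. Build mm10 (GRCm38) is named per the submitters' processing notes, and the trimming of reads is not stated there or in the labels. All 8 sperm tables were used, and the 8 libraries of 3T3 cells were not. Reads of 20 to 26 nt were assigned by an exact match of their first 20 bases to mature arms of RefSeq (GRCm38.p6), and arms with the same first 20 bases were counted as 1. CPM used the total reads of the library. Counts of the kept arms (filterByExpr) were fitted with edgeR 4.0.16 (R 4.3.3) as 4 groups with 1 shared estimate of spread, glmQLFTest and Benjamini-Hochberg adjustment, called at an adjusted p under 0.05. DESeq2 1.42.0 was an alternative, as were 2 scalings, no filter, each library left out, a replicate block, the technical set as a term and 2 match rules. Lengths were compared by exact permutation over 70 splits of 4 and 4 libraries (scipy 1.17.1), adjusted over arms with at least 50 reads in every library. Sets were defined by over 100 G-to-T errors at base 29 or over 5 C-to-G errors at base 26 per 10000, in sequences with at least 1000 reads. No 2 libraries of a group agreed within counting noise.

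All 7 members are named, with the other arms of the clusters and the 3 arms most like each cluster. Members, lists, sets and tests were chosen with earlier results of these data known. The fit was tested on simulated data for diet over both genotypes. With the spread of these libraries it called all of 15 arms lowered and 15 raised 16-fold, 26.7% of those lowered and 33.3% of those raised 4-fold, and 0.787% of 127 unchanged arms among the 187. Each simulated arm varied on its own, with no shift common to the arms of a library or set. In the libraries most arms moved together, with 173 of 187 above 0 for diet. The simulated rates therefore do not describe calls made under such shared shifts. Marker lists held miR-451a, miR-144-3p, miR-486a-5p and miR-486b-5p (erythrocyte), miR-142a-3p, miR-142a-5p, miR-223-3p, miR-150-5p and miR-146a-5p (leukocyte), miR-126a-3p and miR-126a-5p (endothelial), miR-200a-3p, miR-200b-3p, miR-200c-3p, miR-141-3p and miR-429-3p (epididymal epithelium), miR-1a-3p, miR-133a-3p and miR-206-3p (striated muscle), and miR-34c-5p, miR-34b-5p, miR-449a-5p, miR-881-3p, miR-741-3p and miR-871-3p (male germ line). Those not in the table used are miR-486a-5p, miR-486b-5p, miR-150-5p, miR-126a-5p, miR-1a-3p, miR-133a-3p and miR-34c-5p, and all of the smooth muscle (miR-143-3p, miR-145a-5p) and liver (miR-122-5p) lists.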

Additional observations from a re-analysis of the deposited data

Results flagged for a closer look

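Groups of 4 libraries (each member's CPM, cluster share and mean length, by diet and by genotype) were screened with Dixon's test. It flags about 1 group in 20 by chance when groups are independent. These groups reuse the same 8 libraries and members that vary together, so no excess over that rate can be read. A miR-106b-5p group with reads in a single library is flagged by construction. Of 64 groups, 11 had a highest or lowest library farther from the rest than the test allows. Of these, 7 were Dnmt2+/+ ND 2 standing above the other 3 ND libraries, with 4.62 CPM for miR-17-5p, 14.9 CPM for miR-20a-5p, 3.30 CPM for miR-19b-3p, 159 CPM for miR-92a-3p, 24.5 CPM for miR-93-5p, 0.659 CPM for miR-106b-5p and a share of 0.352% for miR-106b-5p in its cluster. The other 3 ND libraries are those of set A, and had at most 0.420 CPM of miR-17-5p and 36.2 CPM of miR-92a-3p. Among Dnmt2+/+ libraries, Dnmt2+/+ ND 1 was low in miR-20a-5p, with 0.315 CPM against 12.8 to 14.9 CPM. Among Dnmt2-/- libraries, Dnmt2-/- HFD 2 was the only one with miR-106b-5p reads (0.225 CPM, and 0.158% of its cluster), which rests on 3 reads, and Dnmt2-/- ND 2 had the longest miR-92a-3p reads, with a mean of 22.5 nt.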

How the results depend on the processing

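Counts of called arms depended on the setting. For diet over both genotypes, edgeR's 14 became 6 with TMM factors, 9 scaled to microRNA reads, 26 with DESeq2, 28 without a filter, 0 with set as a term and 1 to 147 with 1 library left out. In Dnmt2+/+ sperm the 1 call for diet became 0, 3, 18, 13 and 0 under those settings in the same order and 0 to 72 with 1 library left out, and in Dnmt2-/- sperm 0, 0, 3, 20 and 0, and 0 to 68. For genotype, leaving 1 library out gave 0 to 70, and the interaction gave 0 under every setting run. The replicate block gave 10, 1, 1, 0 and 0 calls for diet, diet in Dnmt2+/+, diet in Dnmt2-/-, genotype and interaction. Correlations of same-numbered deviations between groups ran from -0.52 to 0.40, with no common sign. Whether replicate number marks a batch was not tested. The block turned the sign of 1 member value, miR-92a-3p for diet in Dnmt2+/+ (0.040). First 18 bases, 1 mismatch and no filter turned no member's sign. TMM factors turned the diet fold changes of miR-92a-3p (-0.36), miR-93-5p (-0.20) and miR-25-3p (-1.55), those in Dnmt2+/+ of miR-17-5p (-0.23), those in Dnmt2-/- of miR-93-5p (-0.46) and miR-25-3p (-1.18), those for genotype of miR-92a-3p (0.043) and miR-25-3p (0.73) and the interaction of miR-93-5p (-0.51), the median over all arms being -0.08 for diet. Scaled to microRNA reads, these were -0.49 (miR-92a-3p), -0.59 (miR-93-5p) and -1.33 (miR-25-3p) for diet, -1.09 (miR-17-5p), -0.72 (miR-20a-5p), -0.63 (miR-19b-3p) and -0.97 (miR-93-5p) in Dnmt2+/+, -0.21 (miR-93-5p) and -0.83 (miR-25-3p) in Dnmt2-/-, and 0.56 (miR-25-3p) for genotype, with a median of -0.37 for diet. In DESeq2 they were -0.28 (miR-92a-3p), -0.10 (miR-93-5p) and -1.47 (miR-25-3p) for diet, -0.18 (miR-17-5p) in Dnmt2+/+, -0.29 (miR-93-5p) and -1.10 (miR-25-3p) in Dnmt2-/-, 0.57 (miR-25-3p) for genotype and -0.37 (miR-93-5p) for the interaction. Set as a term turned miR-17-5p (-1.56), miR-20a-5p (-2.78), miR-19b-3p (-1.99), miR-92a-3p (-0.29) and miR-93-5p (-2.67) for diet, miR-17-5p (-2.42), miR-20a-5p (-1.94), miR-19b-3p (-1.90) and miR-93-5p (-1.96) in Dnmt2+/+, miR-17-5p (-0.71), miR-20a-5p (-3.62), miR-19b-3p (-2.07) and miR-93-5p (-3.38) in Dnmt2-/-, miR-20a-5p (0.33) and miR-93-5p (0.10) for genotype, and miR-20a-5p (-1.68), miR-19b-3p (-0.17) and miR-93-5p (-1.43) for the interaction. With 1 library left out, signs turned for miR-25-3p for diet (-0.053 to 0.31), in Dnmt2+/+ for miR-17-5p (-0.47 to 2.95), miR-20a-5p (-0.18 to 5.34), miR-19b-3p (-0.074 to 3.53), miR-92a-3p (-0.85 to 1.29) and miR-93-5p (-0.37 to 3.73), for genotype for miR-20a-5p (-2.83 to 0.012), and for the interaction for miR-20a-5p (-2.32 to 3.20), miR-19b-3p (-0.83 to 6.50) and miR-93-5p (-2.01 to 2.09). The cause was not tested. Mean CPM and shares of all 7 members and lengths of miR-92a-3p and miR-25-3p moved by less than the spread between replicates under the other match rules and with all arms of a cluster as the base. At 20, 50 or 200 reads the length tests could call no single arm, as 50, 34 or 19 arms would have to reach the smallest p, so their 0 calls do not bear on stability. In set A the members other than miR-25-3p, miR-92a-3p and miR-93-5p had at most 11 reads per library, which limits what their values there can show.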
